A study of Rattus norvegicus with 40 samples.

Results

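Peroxisomes shorten fatty acids that mitochondria handle poorly, and the 9 genes described here encode enzymes and membrane transporters of that pathway: Ehhadh, Acox2, Acox3, Acaa1a, Hsd17b4, Scp2, Amacr, Abcd2 and Abcd3. They were chosen by name and matched to the platform annotation, which gave 11 of the 31139 probe sets on the array. For 8 of the 9 genes a probe set of their own was found, 3 of them for Scp2. Acaa1a was read only by a probe set annotated to both Acaa1a and its close paralog Acaa1b, so that its values belong to the pair and not to Acaa1a alone. Tests of single genes were run over 13438 features, 1 probe set per gene plus this joint probe set, with adjustment over all of them unless another number of tests is given.

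The livers came from adult male Sprague Dawley SD:CD rats dosed by gavage once a day for 4 days with vehicle or with GW7647, an agonist of the fatty acid receptor PPAR-alpha. The low dose was 0.1 mg/kg, the middle dose 1 mg/kg and the high dose 10 mg/kg. Tissue was collected 24 h after the last dose. Each of the 4 groups held 10 rats, and the total RNA of each liver was read on 1 Affymetrix array, 40 in all. No genetic change was made, and the composition of the vehicle is not given in the sources used here.

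In each turn of peroxisomal beta-oxidation an acyl-CoA oxidase introduces a double bond and passes electrons to oxygen, a bifunctional enzyme hydrates and dehydrogenates the chain, and a thiolase cuts off a short unit. Saturated straight chains and dicarboxylic acids pass mainly through Ehhadh or Hsd17b4 and the Acaa1 thiolases. Branched chains and the side chains of bile acid precursors need the racemase Amacr, the oxidases Acox2 or Acox3, Hsd17b4 and the thiolase domain of Scp2, while transporters of the Abcd family bring the substrates in. In rodent liver many genes of the straight-chain route are classical targets of PPAR-alpha, which binds DNA together with RXR at direct repeats of AGGTCA spaced by 1 base.

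The promoters of 3 members are shown because these genes went different ways with dose: Ehhadh had the largest rise of the set, Abcd3 the largest rise on the branched-chain and bile acid side, and Amacr the largest fall. Each sequence is the 250 bases before the start used in the RefSeq promoter table of the GRCr8 assembly, written 5′ to 3′ on the strand of the gene. For Ehhadh and Abcd3 that start is the edge of the annotated gene span, while the last 44 bases of the Amacr window lie inside the Amacr span. Ehhadh lies on the plus strand (chr11:92746159-92746408), Abcd3 on the minus strand (chr2:212590380-212590629) and Amacr on the plus strand (chr2:61673085-61673334). Capitals mark the 1 match to the spaced repeat.
Ehhadh promoter: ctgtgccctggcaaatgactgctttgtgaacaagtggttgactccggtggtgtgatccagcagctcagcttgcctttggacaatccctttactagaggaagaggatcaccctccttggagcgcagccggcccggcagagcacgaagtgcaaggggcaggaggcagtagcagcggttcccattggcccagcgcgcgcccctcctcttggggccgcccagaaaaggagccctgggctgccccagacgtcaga
Abcd3 promoter: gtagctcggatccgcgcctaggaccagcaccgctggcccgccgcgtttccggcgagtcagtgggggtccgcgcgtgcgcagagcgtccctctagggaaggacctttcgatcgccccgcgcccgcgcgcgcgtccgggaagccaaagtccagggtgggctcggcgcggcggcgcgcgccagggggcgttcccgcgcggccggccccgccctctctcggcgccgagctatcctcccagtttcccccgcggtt
Amacr promoter: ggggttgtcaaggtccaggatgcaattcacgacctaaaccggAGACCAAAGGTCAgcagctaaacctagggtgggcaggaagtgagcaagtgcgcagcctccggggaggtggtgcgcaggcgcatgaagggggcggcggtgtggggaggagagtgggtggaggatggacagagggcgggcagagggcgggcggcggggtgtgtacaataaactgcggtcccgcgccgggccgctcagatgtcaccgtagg
Both strands of all 9 promoters were searched for AGGTCANAGGTCA with up to 2 mismatches over the 12 fixed letters. The Amacr promoter held the sole match, AGACCAAAGGTCA at chr2:61673127-61673139 on the plus strand, with 2 mismatches, 208 to 196 bases before the start of the promoter table and 164 to 152 bases before the edge of the gene span. Of 33469 rat promoters of the same length, 3.15% held a match with up to 2 mismatches, 0.368% with up to 1 and 0.0508% an exact one. These shares describe how often the letters occur. The windows cover only 250 bases of each locus, and 4 of the 9 reached into the annotated gene span (in part for Acox2 and Amacr, wholly for Acox3 and Acaa1a). The Abcd3 promoter was rich in G and C (75.6%) with 42 CpG dinucleotides, against 65.2% and 18 for Amacr, 62% and 11 for Ehhadh, and medians of 51.2% and 5 over all promoters.

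The scale of the deposited log2 values moved with dose, which touches every small change below. The array median averaged 2.47 ± 0.02 over vehicle rats and 2.47 ± 0.03, 2.60 ± 0.02 and 2.71 ± 0.01 over low-, middle- and high-dose rats (SD, n = 10 each), and the median change of all features against vehicle was -0.03, 0.16 and 0.26 at the 3 doses. At the middle and high dose, and between doses, a gene therefore counts as higher or lower only if limma's test (Benjamini-Hochberg adjusted p under 0.05) gave the same direction for the deposited values and for the values quantile-normalized over the 40 arrays. Since the deposited scale is shifted upward, this rule leans to rises. Poly-A control RNAs added before labelling also read higher with dose, with means of 5.57, 5.84, 6.22 and 6.56 from vehicle to the high dose, and their part in the results was not tested. Hepatocyte markers (5 of 6 measured) averaged 12.0 to 12.3 on arrays of every group, and of these Hnf4a (log2 change -0.46) and Serpina1 (-0.14) fell at the high dose and none rose. Of the Kupffer cell and macrophage markers, 3 of 5 were measured, and Cd68, Clec4f and Cd163 all fell at the high dose, where their mean per array was 6.0 to 6.75, against 6.83 to 7.36 with vehicle. Of 18 measured markers of endothelium, stellate cells, cholangiocytes, adipocytes and lymphocytes, 4 rose and 2 fell at the high dose. Those counts are near the shares of all features that rose (20.5%) and fell (7.69%) at this dose. As deposited, the rises were Epcam by 1.26, Col1a1 by 0.59, Adipoq by 0.49 and Sox9 by 0.45. Kdr changed by -0.36 and Des by -0.32. Adipoq and Sox9 read below the array median, with means of 1.88 and 1.51 with vehicle and 2.37 and 1.96 at the high dose. The part of these markers in the results was not tested.

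The set did not respond as one. At the high dose 5 of the 9 members rose (Ehhadh, the joint Acaa1 probe set, Hsd17b4, Abcd3 and, at a very low level, Abcd2), 2 fell (Amacr and Acox2) and 2 did not pass the test on both scales (Acox3 and Scp2). Over all features 20.5% rose and 7.69% fell at this dose. At the middle dose 4 members rose and none fell, where 11.1% of all features rose and 3.37% fell. At the low dose 2 members rose and none fell, where 0.0893% of all features rose and 0.0149% fell. The median log2 change of the members was 0.00, 0.26 and 0.43 at the 3 doses on the deposited scale, against -0.03, 0.16 and 0.26 over all features, and 0.02, 0.17 and 0.16 after quantile normalization, against 0.00, -0.01 and -0.02.

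**Figure D1:**
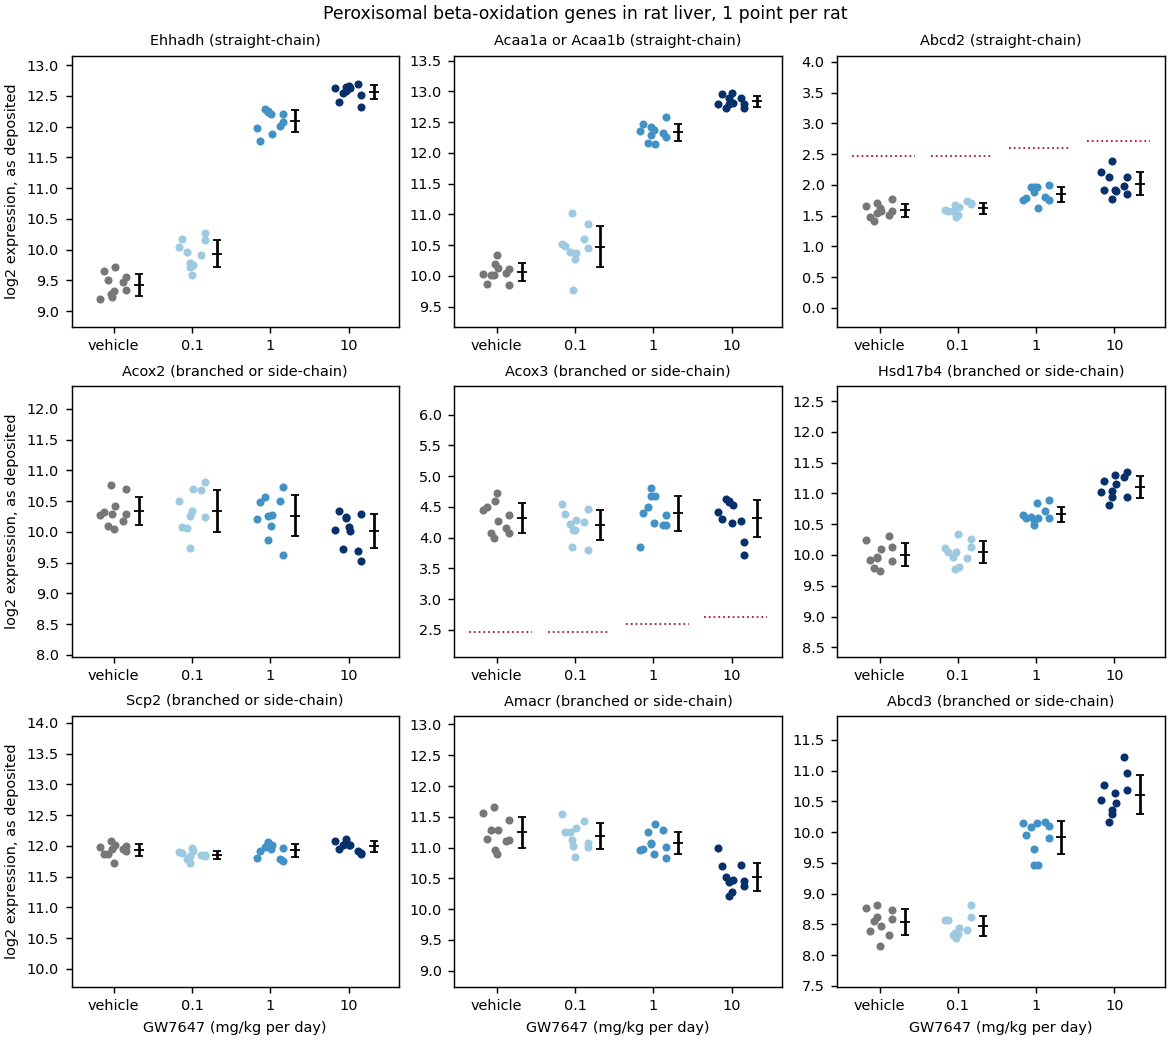
Deposited log2 expression (y axis) of the 9 members in each rat (points) by GW7647 dose (x axis, mg/kg per day, vehicle at the left); black bars show the mean ± SD of 10 rats, and the dotted red line, in view only for Abcd2 and Acox3, is the mean array median of the group. Ehhadh and the joint Acaa1 probe set climb by more than 2 log2 units by 1 mg/kg, Hsd17b4 and Abcd3 climb less, Amacr drops at 10 mg/kg, and Abcd2 stays below the array median in every group.

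Ehhadh, the bifunctional enzyme of straight and dicarboxylic chains, had the largest change of the set. Its log2 level (lowest, median and highest rat) was 9.20, 9.41 and 9.72 with vehicle, 9.59, 9.93 and 10.26 at the low dose, 11.77, 12.13 and 12.29 at the middle dose, and 12.32, 12.60 and 12.69 at the high dose. Low-dose and vehicle rats overlapped, although 9 of 10 treated rats lay above every vehicle rat, while the higher doses shared no value with the dose below them. Relative to vehicle it rose 1.42-fold at the low dose (log2 change 0.51, SE 0.08, limma adjusted p = 0.000381), a call that was lost when arrays were scaled to their hybridisation controls (0.47, adjusted p = 0.624). The rise was 6.33-fold at the middle dose (adjusted p = 5.14e-27) and 8.77-fold at the high dose (95% interval 7.83 to 9.82, adjusted p = 6.9e-30), or 5.54-fold and 7.51-fold after quantile normalization. Of the log2 change at the high dose, 85.0% was present at the middle dose and 16.2% at the low dose. The last step, 10 against 1 mg/kg, was 1.38-fold (adjusted p = 2.82e-05). In whole liver, a change in RNA per cell and a change in the share of cells that carry the RNA cannot be told apart, here and for every gene below.

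The probe set shared by Acaa1a and Acaa1b, the thiolases that end a turn on straight chains, followed Ehhadh closely. Its log2 level (lowest, median and highest) was 9.85, 10.04 and 10.34 with vehicle, 9.77, 10.47 and 11.02 at the low dose, 12.14, 12.34 and 12.58 at the middle dose, and 12.73, 12.80 and 12.97 at the high dose. At the middle and high dose all rats lay above all vehicle rats, and the 2 doses did not overlap either. It rose 4.84-fold at the middle dose (adjusted p = 2.73e-23) and 6.84-fold at the high dose (adjusted p = 1.14e-26), or 4.36-fold and 6.21-fold after quantile normalization. The share of the high-dose change present at the middle dose was 82.0%.

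At the low dose the joint probe set spread more widely (SD 0.33, against 0.14 with vehicle), with 8 of 10 treated rats above every vehicle rat and 1 below every vehicle rat. The 1.33-fold rise at this dose (log2 change 0.41, SE 0.09, adjusted p = 0.0362) lay close to the threshold. Without arrays 8 and 9 of the low-dose group, whose upper quartiles were below those of all other arrays, the change was 0.36 and the adjusted p 0.152. Leaving out any 1 of 13 arrays also ended the call (low-dose arrays 2, 3, 4, 7, 8 and 10, and vehicle arrays 2, 3, 4, 5, 7, 8 and 10). Over all 40 such fits the change was between 0.35 and 0.49 and the adjusted p at most 0.138. It was 0.0682 with all probe sets tested singly, 0.0885 with arrays 1 to 4 as the sole middle-dose arrays, 0.721 in a fit of the 2 groups alone and 0.996 after scaling to hybridisation controls.

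Abcd2, a transporter of very-long-chain and polyunsaturated acyl-CoAs that is abundant in brain and fat rather than in liver, read close to the floor of the array. Its mean was 1.58 ± 0.11 with vehicle, 1.62 ± 0.09 at the low dose, 1.85 ± 0.12 at the middle dose and 2.02 ± 0.19 at the high dose, below the array median in each group. By the rule it rose at the high dose, by 0.43 on the deposited scale (adjusted p = 2.09e-07) and 0.16 after quantile normalization (adjusted p = 0.0375). At the middle dose the quantile-normalized change of 0.17 had an adjusted p of 0.0509. The call at the high dose was lost when arrays were scaled to hybridisation controls (0.20, adjusted p = 0.13), and the deposited change there was of the order of the shift of the array medians.

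On the branched-chain and bile acid side, 2 of 6 members rose at the middle dose, and at the high dose 2 rose and 2 fell. None passed at the low dose. Abcd3 (PMP70), the transporter that carries long branched and bile acid precursor CoAs into the organelle, rose most. Its log2 level (lowest, median and highest) was 8.15, 8.58 and 8.81 with vehicle, 8.28, 8.42 and 8.82 at the low dose, 9.46, 10.02 and 10.17 at the middle dose, and 10.16, 10.58 and 11.23 at the high dose. Low-dose and vehicle rats covered nearly the same range, and every rat at the middle and high dose lay above both. Abcd3 rose 2.59-fold at the middle dose (adjusted p = 6.37e-13) and 4.19-fold at the high dose (adjusted p = 3.89e-19), or 2.23-fold and 3.39-fold after quantile normalization. At the low dose its change was -0.07 (SE 0.11).

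Hsd17b4, the multifunctional enzyme that accepts both straight and branched chains and bile acid precursors, rose less. Its log2 level (lowest, median and highest) was 9.74, 9.96 and 10.30 with vehicle, 9.77, 10.05 and 10.34 at the low dose, 10.49, 10.61 and 10.89 at the middle dose, and 10.82, 11.09 and 11.36 at the high dose. Rats at the middle and high dose again lay above all vehicle rats, and only at the edge did the 2 doses overlap. The rise was 1.58-fold at the middle dose (adjusted p = 1.15e-08) and 2.15-fold at the high dose (adjusted p = 2.47e-15), or 1.40-fold and 1.77-fold after quantile normalization. The share of the high-dose log2 change present at the middle dose was 59.7% for Hsd17b4 and 66.4% for Abcd3.

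In 4 members, Ehhadh, the joint Acaa1 probe set, Hsd17b4 and Abcd3, every rat lay above every vehicle rat at the middle dose, and the same 4 did so at the high dose. Of all features, 4.7% did so at the middle dose and 13% at the high dose. The same 4 rose again between 1 and 10 mg/kg, and Amacr fell, where 8.56% of all features rose and 5.98% fell in that step. Between 0.1 and 1 mg/kg these 4 rose and no member fell (10.5% and 2.95% of all features). With arrays 1 to 4 as the sole middle-dose arrays, whose poly-A controls read lowest, the middle-dose log2 changes were 2.63 for Ehhadh, 2.36 for the joint Acaa1 probe set, 0.73 for Hsd17b4 and 1.48 for Abcd3, against 2.66, 2.28, 0.66 and 1.37 with all arrays.

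Amacr, the racemase that turns the methyl branch of pristanoyl-CoA and of bile acid precursors into the form the oxidases accept, fell at the top dose. Its log2 level (lowest, median and highest) was 10.89, 11.21 and 11.66 with vehicle, 10.84, 11.18 and 11.55 at the low dose, 10.83, 11.03 and 11.38 at the middle dose, and 10.21, 10.47 and 10.99 at the high dose. In the high-dose group 9 of 10 rats lay below every vehicle rat and 9 of 10 below every middle-dose rat. Amacr was 0.603-fold the vehicle level at the high dose (log2 change -0.73, SE 0.10, adjusted p = 4.41e-08), and 0.502-fold after quantile normalization. At the middle dose it did not pass on both scales, with a change of -0.18 (adjusted p = 0.143) as deposited and -0.36 (adjusted p = 0.00615) after quantile normalization. The last step, 10 against 1 mg/kg, was -0.55 (adjusted p = 4.18e-05). With arrays 1 to 4 as the sole middle-dose arrays, the deposited middle-dose change was -0.32 (adjusted p = 0.0613) and the last step -0.41 (adjusted p = 0.0305), while the quantile-normalized middle-dose change was -0.51 (adjusted p = 0.00786).

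Acox2, the branched-chain oxidase that acts on bile acid precursors in rat liver, fell slightly at the high dose. Its log2 level (lowest, median and highest) was 10.05, 10.29 and 10.76 with vehicle, 9.73, 10.30 and 10.82 at the low dose, 9.62, 10.27 and 10.73 at the middle dose, and 9.53, 10.06 and 10.34 at the high dose. The groups overlapped, and 5 of 10 rats at the high dose lay below every vehicle rat. The change was -0.32 (SE 0.13, adjusted p = 0.0291) as deposited and -0.59 (adjusted p = 0.000249) quantile-normalized. On the deposited scale the call was lost without vehicle array 4 or 8 or high-dose array 4, 5 or 7, with changes between -0.27 and -0.29 and adjusted p up to 0.0691.

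Acox3, which in rats oxidises pristanoyl-CoA and other methyl-branched chains, was dim in all groups, with means of 4.32 ± 0.25 with vehicle, 4.21 ± 0.24 at the low dose, 4.40 ± 0.29 at the middle dose and 4.32 ± 0.30 at the high dose. Its change at the high dose was 0.00 (95% interval -0.24 to 0.24) as deposited and -0.24 (-0.48 to -0.00) after quantile normalization, so the sign depended on the scale. Scp2, whose long form is the thiolase of branched chains and whose short form is a sterol carrier, was bright by its brightest probe set, at 11.93 ± 0.10, 11.85 ± 0.07, 11.93 ± 0.11 and 11.99 ± 0.08 from vehicle to the high dose. The Scp2 change at the high dose was 0.06 (95% interval -0.04 to 0.15) as deposited and -0.16 (-0.26 to -0.07, limma adjusted p = 0.00489) after quantile normalization. At the middle dose it was -0.005 and -0.15 (adjusted p = 0.0191) on these scales, so Scp2 passed on the quantile-normalized scale only. A second Scp2 probe set changed at the high dose by 0.17 (adjusted p = 0.0527 among probe sets tested singly) and -0.09 on these scales. The third was dim, at 2.68 ± 0.21 at the high dose and 3.10 ± 0.15 with vehicle, and fell on both scales (-0.42, adjusted p = 0.000124, and -0.68, adjusted p = 7.21e-08, among probe sets tested singly). Which forms of the Scp2 transcript each probe set reads was not determined.

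**Figure D2:**
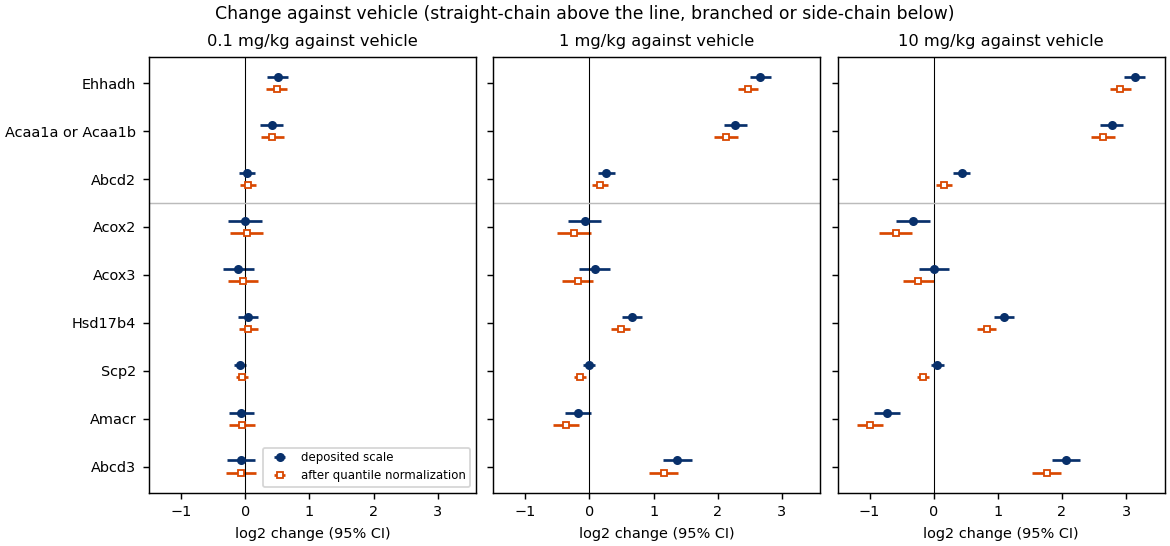
Log2 change against vehicle (x axis, with 95% confidence intervals) of each member at 0.1, 1 and 10 mg/kg, on the deposited scale (filled circles) and after quantile normalization (open squares); straight-chain members stand above the grey line. At 10 mg/kg the intervals of Ehhadh, the joint Acaa1 probe set, Hsd17b4 and Abcd3 lie well above 0 and those of Amacr and Acox2 below 0 on both scales. The intervals of Acox3 and Scp2 include 0 on the deposited scale and lie below 0 after quantile normalization, for Acox3 only just.

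Differences between paired enzymes of a step were then taken within each array, where an offset common to the whole array cancels. There were 6 pairs at 3 doses, tested with permutation tests (two-sided, 100000 resamples) and adjusted over the 18 tests. The smallest p these can give is 2e-05, which becomes 3.6e-05 after adjustment. Ehhadh minus Hsd17b4, the bifunctional enzymes, was 0.46 higher than with vehicle at the low dose (adjusted permutation p = 0.00196), 2.0 higher at the middle dose and 2.03 higher at the high dose (both at the smallest p), with 8, 10 and 10 of 10 rats above every vehicle rat. Ehhadh thus pulled away from Hsd17b4 by 1 mg/kg, and the gap was about the same at the high dose.

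The joint Acaa1 probe set minus Scp2, the thiolases, was 0.49 higher at the low dose (adjusted permutation p = 0.00237), 2.28 higher at the middle dose and 2.72 higher at the high dose (both at the smallest p). Abcd2 minus Abcd3 changed by 0.10 (adjusted permutation p = 0.238), -1.11 and -1.63 (both at the smallest p), with Abcd2 below the array median throughout. Abcd3 alone rose by 1.37 and 2.07 at the middle and high dose. Because Abcd2 read close to the floor, this pair cannot show whether the 2 transporters responded unequally. Acox3 minus Acox2, the branched-chain oxidases, changed by -0.11, 0.16 and 0.33. The 95% interval of that difference at the high dose was -0.04 to 0.70 (adjusted permutation p = 0.103), and the p-values at the low and middle dose were 0.494 and 0.438, which do not show that the oxidases changed alike.

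Mitochondria run the same chemistry with their own enzymes. Ehhadh minus Hadha, the alpha subunit of the mitochondrial trifunctional protein, was 0.23 higher at the low dose (adjusted permutation p = 0.0187), 1.14 higher at the middle dose and 0.87 higher at the high dose (both at the smallest p). The joint Acaa1 probe set minus Acaa2, the mitochondrial thiolase, was 0.12 higher at the low dose (adjusted permutation p = 0.294), 1.31 higher at the middle dose and 1.54 higher at the high dose (both at the smallest p). Both peroxisomal readings therefore changed more than their mitochondrial counterparts at the 2 higher doses. By their brightest probe sets, Hadha itself rose 4.81-fold and Acaa2 2.35-fold at the high dose, or 3.93-fold and 2.01-fold after quantile normalization. The 2 other Hadha probe sets were dim (means of 2.55 and 1.87 over all arrays) and changed by 1.53 and 0.31 as deposited. For Acaa2 the other probe set changed by 1.21.

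**Figure D3:**
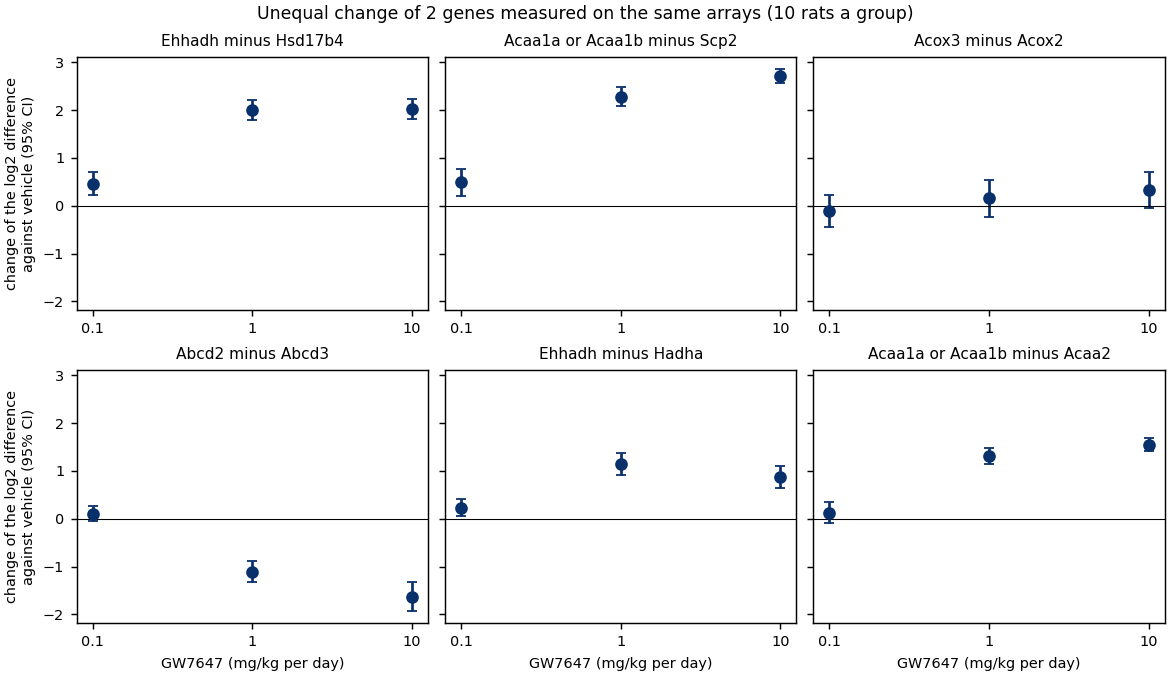
Change against vehicle of the log2 difference between 2 genes on the same array (y axis, points with 95% confidence intervals, 10 rats a group) by GW7647 dose (x axis, mg/kg per day). Ehhadh minus Hsd17b4 reaches about 2 at 1 mg/kg and stays there at 10 mg/kg, Abcd2 minus Abcd3 goes below 0, and the intervals of Acox3 minus Acox2 include 0 at each dose.

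Across all 40 arrays the genes whose levels ran most like Ehhadh, after quantile normalization and among 5799 genes that reached log2 5 on average in some group, were Acot2 (r = 0.991), Cyp4a1 (0.985), Acot1 (0.982), Ech1 (0.982) and Aig1 (0.981). The joint Acaa1 probe set ranked 8th of these with r = 0.979, Abcd3 39th with 0.923 and Hsd17b4 78th with 0.884, while r was -0.596 for Acox2 and -0.781 for Amacr. Nearest to Acox2 were Slc13a4 (0.820), Gsap (0.783), Prodh (0.774), Hyal3 (0.762) and Sult1a1 (0.758), and Amacr ranked 98th with 0.661. These values describe the 40 arrays, which share the 4 dose groups and so the dose steps.

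Variation from rat to rat was then taken by removing each group's mean. Of 36 member pairs, 3 were correlated over the 40 arrays (100000 shuffles, adjusted over the pairs). Hsd17b4 and Abcd3 went together (r = 0.49, adjusted permutation p = 0.0290; rho = 0.48, adjusted p = 0.0418), with r = 0.61 without the 2 farthest arrays, and r was 0.18 in the vehicle group, 0.23 at the low dose, 0.61 at the middle dose and 0.82 at the high dose. The dim Acox3 ran opposite to both Hsd17b4 (r = -0.47, adjusted permutation p = 0.0370; rho = -0.47, adjusted p = 0.0418; -0.48 without the 2 farthest) and Abcd3 (r = -0.54, adjusted permutation p = 0.0166; rho = -0.50, adjusted p = 0.0418; -0.48 without the 2 farthest). Within groups Acox3 and Abcd3 gave r of -0.20 with vehicle, -0.09 at the low dose, -0.82 at the middle dose and -0.80 at the high dose. Against the poly-A controls the same residuals gave r of -0.33 for Hsd17b4, -0.21 for Abcd3 and 0.03 for Acox3. Against the upper quartile of the array r was 0.33 for Hsd17b4, -0.01 for Abcd3 and -0.23 for Acox3, and against the hybridisation controls -0.03, 0.13 and -0.21 in the same order, and the part of these in the correlations was not tested. Ehhadh and the joint Acaa1 probe set, alike in dose response, gave r = 0.15 within groups and did not pass.

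The neighbouring steps of the pathway were described from lists of genes by function, whose counts at the high dose stand beside the 20.5% of all features that rose. Folds of listed genes are as deposited, and those named at the high dose were all smaller after quantile normalization. In the list of auxiliary enzymes of unsaturated chains 3 of 3 measured genes rose at the high dose, the isomerase Ech1 8.01-fold and the isomerase Eci2 2.94-fold. The reductase Pecr, counted in that list without a check of its role in unsaturated chains, rose 1.29-fold, or 1.11-fold after quantile normalization. Among genes of chain export and termination 5 of 5 rose, led by the carnitine acyltransferase Crat (23.3-fold), the thioesterase Acot8 (4.77-fold), the CoA diphosphatase Nudt7 (4.36-fold) and the carnitine acyltransferase Crot (3.59-fold). Of the genes for alpha-oxidation, the step that prepares phytanic acid for the branched-chain route, 3 of 4 rose: the lyase Hacl1 3.15-fold, the acyl-CoA synthetase Slc27a2 1.89-fold and the aldehyde dehydrogenase Aldh3a2 1.75-fold. The log2 changes of Slc27a2 and Aldh3a2 were 0.92 and 0.81 as deposited, and 0.67 and 0.52 after quantile normalization. The hydroxylase Phyh passed only on the deposited scale.

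Of the bile acid side-chain steps outside the member set, 1 of 4 rose, a share near the 20.5% of all features. It was Acot8, which also counts under chain export. The sterol hydroxylase Cyp27a1 changed by 0.34 as deposited and 0.09 after quantile normalization, the bile acyl-CoA synthetase Slc27a5 by -0.09 and -0.35, and the conjugating enzyme Baat by -0.01 and -0.24. Of the genes that process or import matrix enzymes 2 of 4 rose, the protease Tysnd1 (2.49-fold) and the protease Lonp2 (1.74-fold). For Lonp2 the log2 change was 0.79 as deposited and 0.52 after quantile normalization. The import receptor Pex7 did not pass on both scales. For the import receptor Pex5 the brightest probe set went opposite ways, by 0.18 as deposited and -0.13 after quantile normalization. Another, dim Pex5 probe set fell on both scales (-0.27, limma adjusted p = 0.00459, and -0.51, adjusted p = 2.6e-06, among probe sets tested singly). Of 6 other core genes listed 2 were measured on their own. Of these the dim Abcd4 rose (1.44-fold, or 1.21-fold after quantile normalization) and Slc25a17 did not pass on both scales. Acaa1b was read only by the joint probe set, and among other listed genes Acbd5, Decr2, Acot3, Acot4, Acot5 and Acot6 were not analysed here. In the mitochondrial core spiral 8 of 9 genes rose at the high dose, with Hadhb at 3.89-fold and Acadvl at 2.37-fold beside Hadha and Acaa2, and Echs1 did not pass.

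At the middle dose the same lists gave 3 of 3, 4 of 5, 4 of 4, 1 of 4, 2 of 4, 0 of 2 and 8 of 9 rises, in the order just used, where 11.1% of all features rose. At the low dose Ech1 (1.64-fold) and the mitochondrial Hadhb and Acaa2 (both 1.22-fold) rose and no other listed gene outside the member set passed. The median log2 changes at the high dose were 1.55 for the auxiliary enzymes, 2.13 for export and termination, 0.86 for alpha-oxidation, 0.17 for the bile acid steps, 0.63 for processing and import and 1.16 for the mitochondrial spiral on the deposited scale, against 0.26 over all features. After quantile normalization they were 1.27, 1.82, 0.60, -0.08, 0.33 and 0.88 in the same order, against -0.02, so that the sign for the bile acid steps turned. Among the members the median as deposited was 2.77 for the 3 straight-chain genes and 0.03 for the 6 branched-chain and bile acid genes. After quantile normalization the medians were 2.63 and -0.20, so that the sign for the branched-chain group turned. The straight-chain median was the value of the joint Acaa1 probe set. Hsd17b4, which accepts both kinds of chain, was counted only in the branched-chain group.

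**Figure D4:**
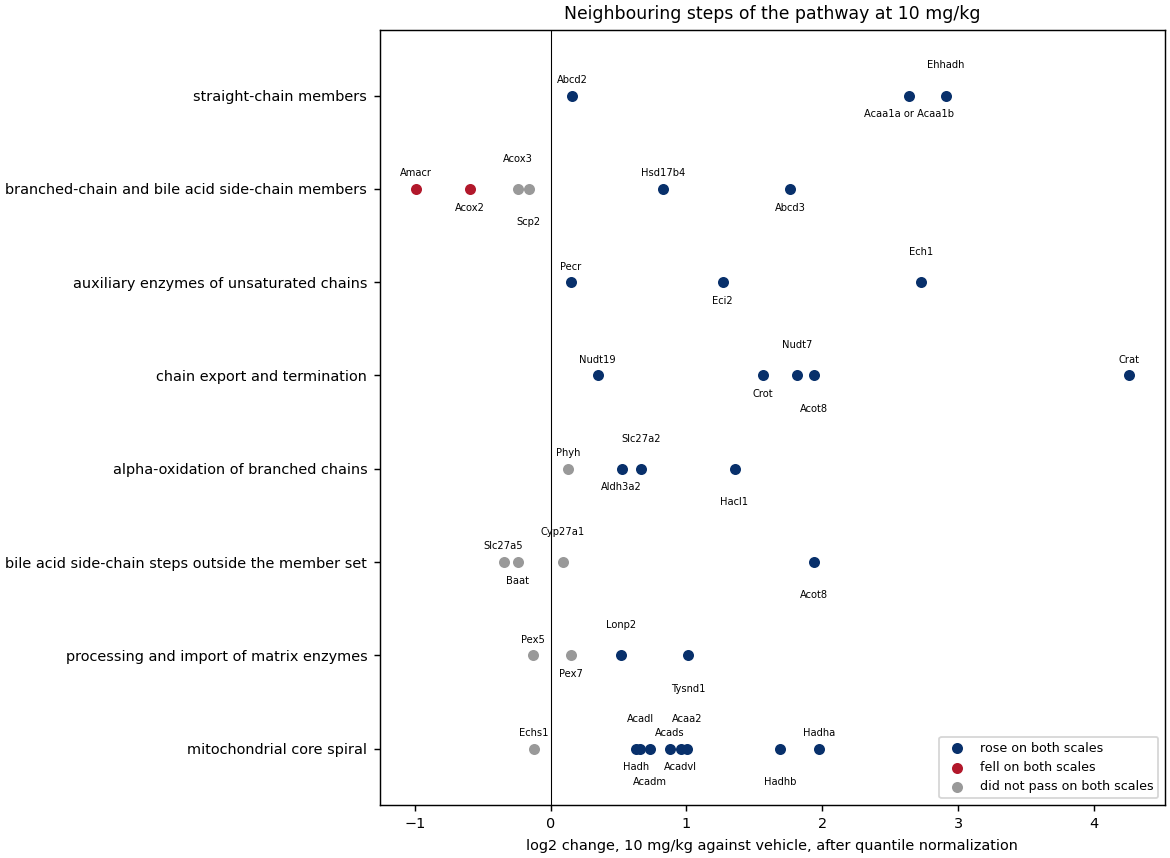
Log2 change at 10 mg/kg against vehicle after quantile normalization (x axis) for the members and the genes of neighbouring steps (1 row per list, 1 labelled point per gene), in blue where a gene rose on both scales, red where it fell and grey where it did not pass on both. The straight-chain, auxiliary and export rows extend to the right, and Amacr and Acox2 are the only red points.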

How the data were processed

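Per the submitters' processing notes, the authors made the deposited log2 expression values with GCRMA and Partek, for which no version is given. GCRMA corrects each probe for background, normalizes the arrays to each other and summarises the probes of a set, so dim probe sets sit near a floor. Whether all 4 groups were normalized in the same run is not stated in the labels. The labels name 10 separate rats per group. Arrays have no read depth, and precision is limited by their number.

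Of 31139 probe sets, 19068 carried 1 gene, 573 several and 11498 were unnamed here. Symbols of 18989 were matched by gene number to RefSeq (GRCr8). Each of 13437 genes was represented by its brightest probe set on average, and 1 probe set annotated to both Acaa1a and Acaa1b was added. The 4 groups were fitted with limma 3.58.1 in R 4.3.3 (lmFit, eBayes, 36 residual degrees of freedom), two-sided, with Benjamini-Hochberg adjustment over 13438 features and a threshold of 0.05. Pairs and correlations were tested by permutation in Python 3.11.15 with scipy 1.17.1. The fit was also run on simulated data with independent noise and no shift of scale between groups. That run therefore says nothing about the shift seen here. All members, Hadha and Acaa2 are named whatever their values. Each other list is given by counts, with values of up to 4 genes that changed most at the high dose; genes that did not pass were named after their values were seen. The 5 genes most like Ehhadh and most like Acox2 are named. The members and lists were chosen with earlier results of these data known. Alternatives varied the scaling, spread, probe set choice, filter, arrays and threshold. Promoter sequences are from RefSeq.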

Additional observations from a re-analysis of the deposited data

How the results depend on the processing

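Alternatives were compared with the main fit of the deposited values alone, without the rule of both scales. Of 638 alternative values for the members, 574 kept direction and side of the threshold, 29 no longer passed, 7 newly passed and 28 changed sign. Some of these concerned changes that were not called by the rule, such as Abcd2 and Amacr at 1 mg/kg. For Ehhadh, the joint Acaa1 probe set, Hsd17b4, Abcd3 and Amacr no call at 10 mg/kg against vehicle was lost. Against a margin of 1.2-fold the low-dose rises of Ehhadh and the joint probe set no longer passed, nor did the 10 against 1 mg/kg steps of Ehhadh, the joint probe set, Hsd17b4 and Amacr (adjusted p of 0.215, 0.181, 0.305 and 0.101), nor Acox2 at 10 mg/kg (0.662). The sign changes concerned Acox2, Acox3, Scp2 and Abcd2, and of these only the Abcd2 step from 1 to 10 mg/kg had passed on the deposited scale. Quantile normalization turned Acox3 (-0.181 at 1 mg/kg, -0.243 at 10 mg/kg, -0.146 for 1 against 0.1 mg/kg), Scp2 (-0.161 at 10 mg/kg, -0.0972 and -0.0132 for the steps) and Abcd2 (-0.00726 for 10 against 1 mg/kg). Shifting array medians turned Acox3 (-0.0419, -0.236) and Scp2 (-0.181, -0.0561, -0.0545), and scaling to hybridisation controls turned Acox2 (-0.0384) and Abcd2 (-0.00794) at 0.1 mg/kg, Acox3 (-0.0908, -0.231) and Scp2 (-0.176, -0.0554, -0.000681). The mean of all probe sets turned Scp2 (-0.0653, -0.0555), array weights turned Acox2 (-0.0632 at 0.1 mg/kg, 0.00216 for 1 against 0.1 mg/kg), and a 1 mg/kg group of arrays 1 to 4 turned Acox3 (-0.0127, 0.0150, and -0.240 with quantile normalization). Without arrays 8 and 9 of the 0.1 mg/kg group Acox2 was -0.0313, and -0.0195 with quantile normalization. The settings on arrays 8 and 9, and the quantile-normalized form of arrays 1 to 4, were chosen after seeing the data. Leaving out 1 array gave -0.0509 to 0.0695 for Acox2 at 0.1 mg/kg, -0.0337 to 0.0696 for Acox3 at 10 mg/kg and -0.0292 to 0.0136 for Scp2 at 1 mg/kg. The causes were not tested.

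Counts of called features on the deposited scale were 14, 5593 and 8627 at 0.1, 1 and 10 mg/kg, 6506 for 1 against 0.1 mg/kg and 4110 for 10 against 1 mg/kg. Quantile normalization gave 3107 at 1 mg/kg and 2942 and 2463 for the steps, array medians 4071 for the first step, and hybridisation controls 7, 1738, 4024, 2114 and 1152. A fit of only the 2 groups gave 7 at 0.1 mg/kg. With the filter on dim genes they were 3177, 3882, 3590 and 1423 and with all probe sets singly 11109, 20490, 13004 and 11334, since the features tested differ. Arrays 1 to 4 alone as the 1 mg/kg group gave 3621, 4276 and 1998, or 1840 at 1 mg/kg with quantile normalization, and the test against 1.2-fold gave 4, 915, 3154, 1140 and 264. Of 36 alternatives for the pairs, 35 kept the call, and with the mean of all probe sets the joint Acaa1 probe set minus Acaa2 at 0.1 mg/kg passed (0.263, adjusted p = 0.0449).

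The labels number the rats of each group but state no pairing across groups. Residuals of 60 same-numbered pairs of arrays had a mean r of 0.05 (-0.27 to 0.37), against -0.00465 for 540 others. An r over 0.1 was seen in 17 of the 60 and 104 of the 540, and pairing was not tested. With the number as a replicate block the counts were 15, 5654, 8659, 6560 and 4111, and no call of a member changed.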
